A study of Mus musculus with 4 samples.

Results

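The 5 genes described here encode parts of the route by which calcium enters and leaves the mitochondrial matrix: Mcu, Smdt1, Micu2, Letm1 and Slc8b1. They were chosen by symbol, 5 of the 55401 genes in the deposited count table, with their difference between Hic1 vector and empty vector libraries already known. Their values in that comparison are therefore given as a description, with no test, and support nothing further. All 5 passed the filter on low counts that left 11676 genes. The cells were P14 CD8+ T cells, whose transgenic receptor recognises lymphocytic choriomeningitis virus, sorted from mouse spleen after Armstrong strain infection. They carried an empty control vector or a Hic1 overexpression vector, and Hic1 encodes a zinc finger transcriptional repressor. Each group had 2 libraries (empty vector 1 and 2, Hic1 vector 1 and 2), made by Smart-seq2 from cells sorted and then resorted, 1000 to a lysate. The time since infection is day 32 in the sample labels but day 7 in the text of the series. The sources used here do not give the age and strain of the mice or whether cells of several mice were pooled.

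The uniporter is a calcium channel of the inner mitochondrial membrane. Mcu encodes its pore, Smdt1 encodes EMRE, the small subunit that the pore needs in animal cells, and Micu2 encodes an EF-hand protein that helps to gate the pore by cytosolic calcium. Slc8b1 encodes NCLX, the sodium-calcium exchanger that carries calcium back out, and Letm1 encodes an inner membrane protein described as a cation-proton exchanger. In T cells, calcium taken up by mitochondria shapes calcium entry across the plasma membrane and stimulates matrix dehydrogenases.

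In mm10, Micu2 lies on chromosome 14 (57916261 to 57999262, minus strand) and Mcu on chromosome 10 (59446984 to 59616692, minus strand). Smdt1 lies on chromosome 15 (82338959 to 82349091, plus strand). Letm1 and Slc8b1 are both on chromosome 5 (33739673 to 33782817, minus strand, and 120511168 to 120534024, plus strand). All 5 are annotated as protein coding. Of the exonic bases of Smdt1, 16.6% are shared with Pheta2 on the same strand, so its counts are less certain. The other 4 share no exonic base with another annotated gene.

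RefSeq (GRCm38.p6) gave promoter windows for Mcu, Smdt1, Micu2 and Letm1, and Slc8b1 is named only. The 250 bases upstream of the start are printed for the 2 genes with the largest differences, Micu2 and Mcu, and for Smdt1, whose level differed least. Each is written 5′ to 3′ on the gene's own strand, with the 4-base core GGCA of the HIC1 recognition site, or TGCC where it lies on the opposite strand, in capitals. The windows are chr14:57999263-57999512 (minus), chr10:59616693-59616942 (minus) and chr15:82345796-82346045 (plus), and the RefSeq start of Smdt1 lies downstream of the start of the annotated gene above.
Micu2: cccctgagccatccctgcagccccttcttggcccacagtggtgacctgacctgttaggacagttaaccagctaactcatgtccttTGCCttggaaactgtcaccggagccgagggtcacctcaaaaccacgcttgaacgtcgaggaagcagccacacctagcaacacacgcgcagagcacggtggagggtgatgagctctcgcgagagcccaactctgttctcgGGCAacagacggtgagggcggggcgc
Mcu: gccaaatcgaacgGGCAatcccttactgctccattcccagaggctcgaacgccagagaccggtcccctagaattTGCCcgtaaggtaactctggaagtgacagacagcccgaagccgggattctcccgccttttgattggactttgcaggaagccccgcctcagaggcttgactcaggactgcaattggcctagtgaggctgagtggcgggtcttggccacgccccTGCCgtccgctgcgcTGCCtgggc
Smdt1: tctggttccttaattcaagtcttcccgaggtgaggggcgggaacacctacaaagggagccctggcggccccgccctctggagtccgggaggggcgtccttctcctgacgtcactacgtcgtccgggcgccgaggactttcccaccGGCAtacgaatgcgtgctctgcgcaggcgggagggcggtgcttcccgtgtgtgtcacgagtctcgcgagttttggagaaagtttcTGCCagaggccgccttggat
The core was found 2 times in the Micu2 window, 4 times in the Mcu window and 2 times in the Smdt1 window. It was found 4 times in the Letm1 window, which is not printed. At least 1 core was present in 88.2% of all 32851 windows of this length, and at least 4 were present in 21.5%. The longer form GGGCANCC, searched on both strands (GGNTGCCC in reverse), was in none of the 4 windows and in 4.5% of all windows. All 4 windows held more CpG than the median window, with 14 in Micu2, 15 in Mcu, 17 in Letm1 and 23 in Smdt1 against a median of 6. These matches are a description of letters, and binding was not measured.

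The libraries held 3941364 to 4017346 counts with the empty vector and 7501285 to 8839317 with the Hic1 vector, so depth differed with the group. Hic1 had 3 and 5 counts with the empty vector and 314 and 161 with the Hic1 vector. Gene counts do not separate vector transcripts from endogenous ones. Xist had 1885 and 3590 counts in the libraries numbered 1 and 0 and 3 in those numbered 2, while the Y-linked Eif2s3y had 0 in those numbered 1 and 396 and 951 in those numbered 2. The 2 libraries of a group thus came from animals of different sex, and differences within each number are given below. Marker levels are in CPM (counts scaled to 1000000 per library, with library totals adjusted by TMM). CD8 T cell markers (Cd3e, Cd3d, Cd8a, Cd8b1, Trac) summed to 4390 to 4540 CPM with the empty vector and 4680 to 5361 CPM with the Hic1 vector. The 3 CD4 T cell markers summed to 9.99 to 18 CPM against 12 to 33.2 CPM, which overlap. Among them Cd4 had 1 to 5 counts, Foxp3 0 to 2 and Cd40lg 39 to 231. The 5 B cell markers summed to 79.1 to 88.4 CPM against 213 to 279 CPM, and 3 of the 5 were higher without overlap, although Ms4a1 had 0 to 2 counts. Most of that sum was Ighm, and the other 4 summed to 17.7 and 4.0 CPM against 41.4 and 15.6 CPM, which overlap. The 2 NK cell markers summed to 29.4 to 44.2 CPM against 58.7 to 70.9 CPM, with Ncr1 at 0 to 2 counts. The 6 myeloid markers summed to 49.3 to 63.5 CPM against 43.4 to 50.4 CPM, and the 4 globin genes to at most 2.25 CPM. The part of these markers and of depth in the values below was not tested.

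Micu2 and Mcu were lower in both Hic1 vector libraries, Smdt1 was nearly level, and Letm1 and Slc8b1 differed mainly through a single library each. On the log2 scale the differences, Hic1 vector minus empty vector, were -2.02 for Micu2, -1.15 for Mcu, -0.64 for Letm1, 0.09 for Smdt1 and 0.68 for Slc8b1. Both Hic1 vector libraries lay below both empty vector libraries for 3 of the 5 genes, as for 24.9% of all genes tested, and above them for 2 of the 5, as for 26.5%. By edgeR's quasi-likelihood test at an adjusted p below 0.05, 1.1% of all genes were called lower and 0.719% higher. Since the 5 genes were chosen with this contrast known, no call is given for them. Nothing is read from how many of them did not overlap. In bulk RNA, fewer cells that express a gene and less RNA per cell cannot be told apart.

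**Figure D1:**
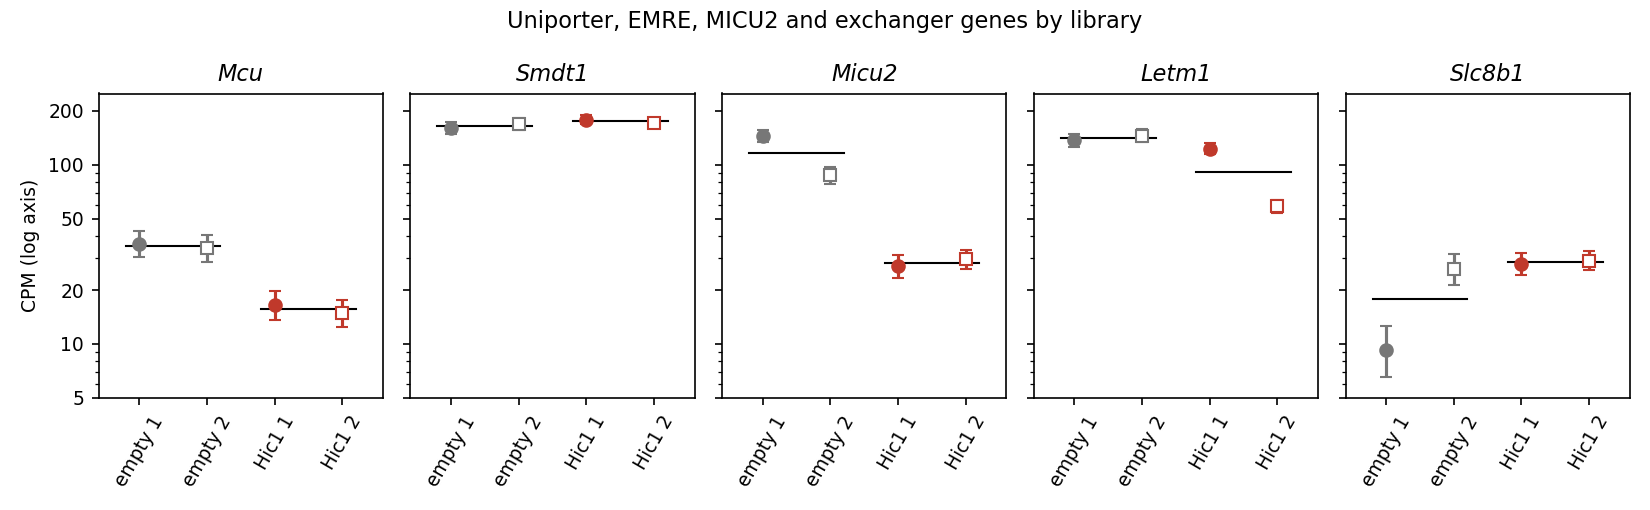
Level of each of the 5 genes in each library, in CPM on a log axis. Circles are libraries numbered 1 and open squares those numbered 2, grey is the empty vector and red the Hic1 vector, bars are exact 95% counting intervals, and horizontal lines are group means (n = 2). Mcu and Micu2 sit lower in both Hic1 vector libraries, while Letm1 is low in Hic1 vector 2 and Slc8b1 in empty vector 1.

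Mcu, the pore, measured 36.2 and 34.2 CPM with the empty vector against 16.5 and 14.8 CPM with the Hic1 vector, from 117 to 149 counts each. Within each group the libraries lay close together, and the groups did not overlap. The mean was 35.2 ± 1.37 CPM against 15.6 ± 1.17 CPM (SD, n = 2 each), and the log2 fold change was -1.15 ± 0.247 (SE), which is 2.23-fold lower. The difference was nearly the same within each replicate number, -1.13 in number 1 and -1.21 in number 2. Leaving out any single library gave -1.22 to -1.07.

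Smdt1, which encodes EMRE, was at 160 and 169 CPM with the empty vector and at 178 and 171 CPM with the Hic1 vector. All 4 libraries were within a narrow range, and the Hic1 vector libraries were only just above the others. The means were 164 ± 6.31 and 175 ± 4.95 CPM (SD, n = 2 each), with a log2 fold change of 0.09 ± 0.144 (SE). The sign of this small value was not stable, since it was -0.04 once a trend on transcript GC content had been taken out.

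Micu2, the gatekeeper subunit, measured 145 and 87.2 CPM with the empty vector against 27.2 and 29.6 CPM with the Hic1 vector. The Hic1 vector libraries were alike, whereas the empty vector libraries differed 1.67-fold, with 95% counting intervals of 134 to 157 CPM and 78.3 to 96.8 CPM that do not meet. The log2 fold change was -2.02 ± 0.239 (SE), which is 4.05-fold lower and is below all but 0.3% of the genes tested. It was -2.41 within number 1 and -1.56 within number 2. Without empty vector 1 it was -1.60, and without empty vector 2 it was -2.35.

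Slc8b1, the exchanger that carries calcium out, was at 9.22 and 26.2 CPM with the empty vector and at 27.9 and 29.2 CPM with the Hic1 vector. Empty vector 1 stood apart with 38 counts (95% counting interval 6.53 to 12.7 CPM), and empty vector 2 lay close to the Hic1 vector libraries, with 21.5 to 31.8 CPM as its interval. The log2 fold change was 0.68 ± 0.399 (SE), from 17.7 ± 12 to 28.5 ± 0.915 CPM (SD, n = 2). It was 1.58 within number 1 and 0.15 within number 2, and it was 0.12 when empty vector 1 was left out.

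Letm1 was at 137 and 145 CPM with the empty vector and at 123 and 58.7 CPM with the Hic1 vector. Here Hic1 vector 2 was the library apart, 2.10-fold below Hic1 vector 1. Its 95% counting interval was 53.7 to 64 CPM, against 115 to 132 CPM in Hic1 vector 1. The log2 fold change was -0.64 ± 0.316 (SE), from 141 ± 5.66 to 90.9 ± 45.5 CPM (SD, n = 2). It was -0.16 within number 1 and -1.31 within number 2, and leaving out Hic1 vector 2 gave -0.19. The counting intervals treat every read as a separate count, although PCR copies of a molecule could not be told apart. They also leave out other variation between libraries. Chi-square per degree of freedom within a group was 9.99 with the empty vector and 19.4 with the Hic1 vector, above what counting alone gives. The intervals are thus too narrow, and those of Micu2, Slc8b1 and Letm1 that do not meet do not by themselves set a library apart.

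The replicate numbers give a contrast that played no part in the choice of genes. In a fit with group and number, none of the 5 genes passed the edgeR test after adjustment over all genes, and none had an unadjusted p below 0.05. Over all genes 27 passed, or 0.231%. The values, number 2 minus number 1, were 0.65 ± 0.323 for Slc8b1 (log2, SE, adjusted p = 0.519) and -0.50 ± 0.226 for Letm1 (adjusted p = 0.486). Micu2 had -0.33 ± 0.204, Mcu -0.11 ± 0.227 and Smdt1 0.01 ± 0.123. DESeq2 and limma voom also called none of the 5, and at an unadjusted p below 0.05 voom had Letm1 alone and DESeq2 none. In edgeR without the ribosomal RNA gene Letm1 was below that level, and with no low-count filter Letm1 and Slc8b1 were.

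Levels between genes were compared as CPM per kilobase of merged exons. In the empty vector libraries the order was Smdt1 at 111 ± 4.27, Micu2 at 37.7 ± 13.3, Letm1 at 14.6 ± 0.587, Slc8b1 at 5.12 ± 3.47 and Mcu at 5.08 ± 0.198 (SD, n = 2). Slc8b1 and Mcu did not differ there beyond their spread. In the Hic1 vector libraries Smdt1 was at 118 ± 3.35, Letm1 at 9.42 ± 4.72, Micu2 at 9.21 ± 0.563, Slc8b1 at 8.24 ± 0.264 and Mcu at 2.26 ± 0.169. On this scale the means of Letm1, Micu2 and Slc8b1 were thus close together, and Letm1 was above Micu2 in Hic1 vector 1 and below it in Hic1 vector 2. The scale depends on the length used. With the longest annotated transcript, a choice made after the data were seen, Mcu was at 12.3 and Slc8b1 at 6.12 in the empty vector libraries, so that Mcu was above Slc8b1. In the Hic1 vector libraries that length gave means of 17.2 for Letm1, 12.2 for Micu2 and 9.84 for Slc8b1, which were further apart.

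Ratios within a library do not depend on scaling between libraries. Smdt1 to Mcu, per exonic kilobase, was 20.7 and 23.1 with the empty vector and 50.8 and 54.3 with the Hic1 vector, so the EMRE transcript was more abundant relative to the pore transcript in both Hic1 vector libraries. Micu2 to Mcu was 9.03 and 5.73 against 3.71 and 4.50, lower without overlap but with the empty vector libraries far apart. Slc8b1 to Mcu was 0.511 and 1.54 against 3.39 and 3.94. This last ratio was higher without overlap, and the empty vector libraries were far apart. Letm1 to Mcu overlapped between the groups (2.73 and 3.05 against 5.37 and 2.85). These ratios hold genes chosen for the contrast and have no test, and a change of gene length moves all 4 libraries of a ratio by the same factor.

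**Figure D2:**
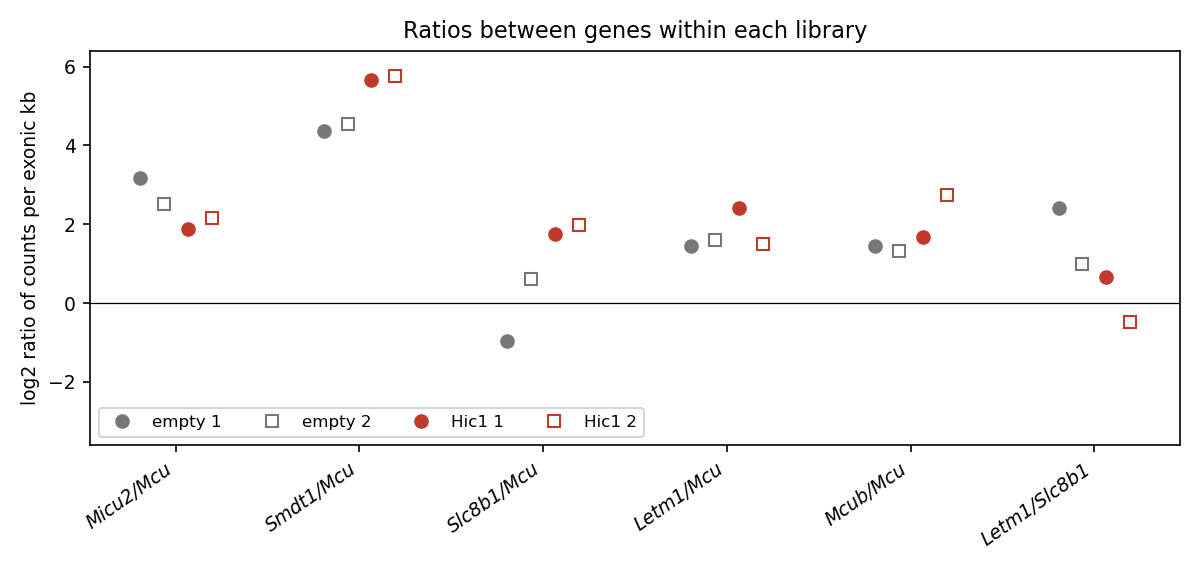
Log2 ratio of counts per exonic kilobase for pairs of genes, within each library. Grey is the empty vector, red the Hic1 vector, circles are libraries numbered 1 and open squares those numbered 2. Micu2/Mcu is lower and Smdt1/Mcu is higher in both Hic1 vector libraries, while Letm1/Mcu overlaps.

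The wider set of uniporter partners and other mitochondrial calcium genes showed no member that passed in edgeR. Of 20 listed, 19 were tested, and none was called by the same edgeR test, with p-values adjusted over all genes, against 1.82% of all genes. DESeq2 and limma voom called none either (3.58% and 1.51% of all genes). In edgeR 5 of the 19 had an unadjusted p below 0.05, against 19.1% of all genes. With no low-count filter 3 of the 19 were called (Afg3l2, Slc25a25 and Ucp2), against 819 of 31962 over all genes. Without Hic1 vector 1 the log2 fold change of Afg3l2 was -1.13. Over the 19 genes, with all libraries, the log2 fold change was above 0 in 12 and below 0 in 7. Their median was 0.09, and the median of all genes tested was 0.01. Ucp2, a mitochondrial uncoupling protein gene, had a value of 0.43 ± 0.134 (SE), and Slc25a24, a calcium-regulated ATP-magnesium/phosphate carrier, had 0.52 ± 0.174. Its relative Slc25a25 had 0.85 ± 0.299. Afg3l2, a subunit of the matrix protease that degrades unassembled EMRE, had -0.71 ± 0.235.

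Among direct partners of the pore, named for that role and outside the naming rule, Mcub, the pore subunit that dampens uptake, was at 18.7 and 16.2 CPM against 10 and 18.7 CPM. Its groups overlapped. Micu3, a relative of Micu2, had 12 to 62 counts and a log2 fold change of 1.01 ± 0.462 (SE, adjusted p = 0.263 by edgeR). Mcur1, a uniporter assembly factor, was at 23.6 and 18 CPM against 11.5 and 12.7 CPM, with a log2 fold change of -0.76 ± 0.298 and an adjusted p of 0.194 by edgeR. Vdac1, Vdac2 and Vdac3, genes of outer membrane channels and not of the inner membrane pore, had values of -0.11, -0.06 and 0.27 and did not pass.

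Across the 6 lists edgeR called 1 of the 117 genes tested, Camk2d, which is 0.855% against 1.82% of all genes. Camk2d, a calcium/calmodulin-dependent kinase subunit, fell by 1.29 on the log2 scale (SE 0.262, adjusted p = 0.0367 by edgeR's quasi-likelihood test). It was at 63.1 and 38.7 CPM with the empty vector and at 20.4 and 20.9 CPM with the Hic1 vector. As with Micu2, the empty vector libraries differed and the Hic1 vector libraries were alike. The call was lost without empty vector 1 (adjusted p = 0.336), without Hic1 vector 2 (0.0548) and after removal of the GC trend (0.0598). It was called in 11 of 14 alternatives, with values of -1.61 to -0.90. The other 17 tested genes of calmodulin, calcineurin and NFAT did not pass in edgeR or limma voom, and DESeq2 called Nfatc3 beside Camk2d. Of all 18 tested in this list, 7 had an unadjusted p below 0.05 in edgeR, against 19.1% of all genes. Over the 6 lists 30 of the 117 genes did (25.6%), against 19.1% of all genes. Nfatc3, an NFAT transcription factor, had -0.60 ± 0.145 (adjusted p = 0.0606 by edgeR and 0.0219 by DESeq2) and was called in 6 of 14 alternatives. Cabin1 had 0.43 ± 0.151 and Calm2 0.32 ± 0.131. The median of the 18 was -0.02.

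None of 14 calcium-sensitive matrix enzymes and carriers passed in edgeR, DESeq2 or limma voom, and 3 had an unadjusted p below 0.05 in edgeR, near the 19.1% of all genes. Pdp1, the calcium-stimulated phosphatase of pyruvate dehydrogenase, had a log2 fold change of -0.81 ± 0.287 (SE) and Gpd2, the mitochondrial glycerol phosphate dehydrogenase, -0.43 ± 0.183. Idh3g, a subunit of isocitrate dehydrogenase, had 0.44 ± 0.164, Pdpr, a regulatory subunit of that phosphatase, had -0.46 ± 0.262, and the median was 0.01. Of 15 genes of ER calcium release and ER-mitochondria contact none passed in edgeR or limma voom, and DESeq2 called Tmbim6 alone. In edgeR 4 of the 15 had an unadjusted p below 0.05, against 19.1% of all genes. Tmbim6, an ER membrane protein, had 0.61 ± 0.164 (adjusted p = 0.0858 by edgeR), Fis1 0.51 ± 0.157 and the calcium release channel gene Itpr3 0.54 ± 0.198. The median of this list was 0.16.

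Of 19 store-operated entry, pump and channel genes none passed in edgeR or limma voom, and DESeq2 called Trpm7 alone. In edgeR 5 of these 19 had an unadjusted p below 0.05, against 19.1% of all genes. Trpm7, a cation channel with a kinase domain, had a log2 fold change of -0.84 ± 0.221 (SE, adjusted p = 0.0823 by edgeR). Saraf, a brake on store-operated entry, had 0.44 ± 0.123 and the plasma membrane pump gene Atp2b4 -0.64 ± 0.214. The potassium channel gene Kcna3 had 1.16 ± 0.461 (adjusted p = 0.201 by edgeR). Its counts were low, 20 and 18 with the empty vector and 108 and 58 with the Hic1 vector. Without Hic1 vector 1 the log2 fold change of Kcna3 was 0.47. The median over the list was 0.07. None of 32 genes of mitochondrial import, structure and content passed in edgeR, DESeq2 or limma voom, and 6 had an unadjusted p below 0.05 in edgeR, near the 19.1% of all genes. Their median was 0.08. The largest named values there were -0.90 ± 0.255 for Tomm70a, an import receptor, and 0.73 ± 0.215 for Polrmt, the mitochondrial RNA polymerase. Timm44, an import motor subunit, had 0.52 ± 0.192, and Gabpa, a transcription factor of nuclear genes for mitochondria, had -0.64 ± 0.246.

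With the replicate number, which the sex of the animals follows, as a term in the edgeR fit, 11 of the 117 list genes were called (9.4%), against 6.8% of all genes. Trpm7 (adjusted p = 0.00759), Atp2b4 (0.043), Camk2d (0.0129), Nfatc3 (0.0151), Afg3l2 (0.0368) and Tomm70a (0.046) fell. Tmbim6 (0.0115), Saraf (0.0284), Ucp2 (0.0326), Fis1 (0.0399) and Polrmt (0.0489) rose. Of these 11, only Camk2d passed in the edgeR fit without that term.

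**Figure D3:**
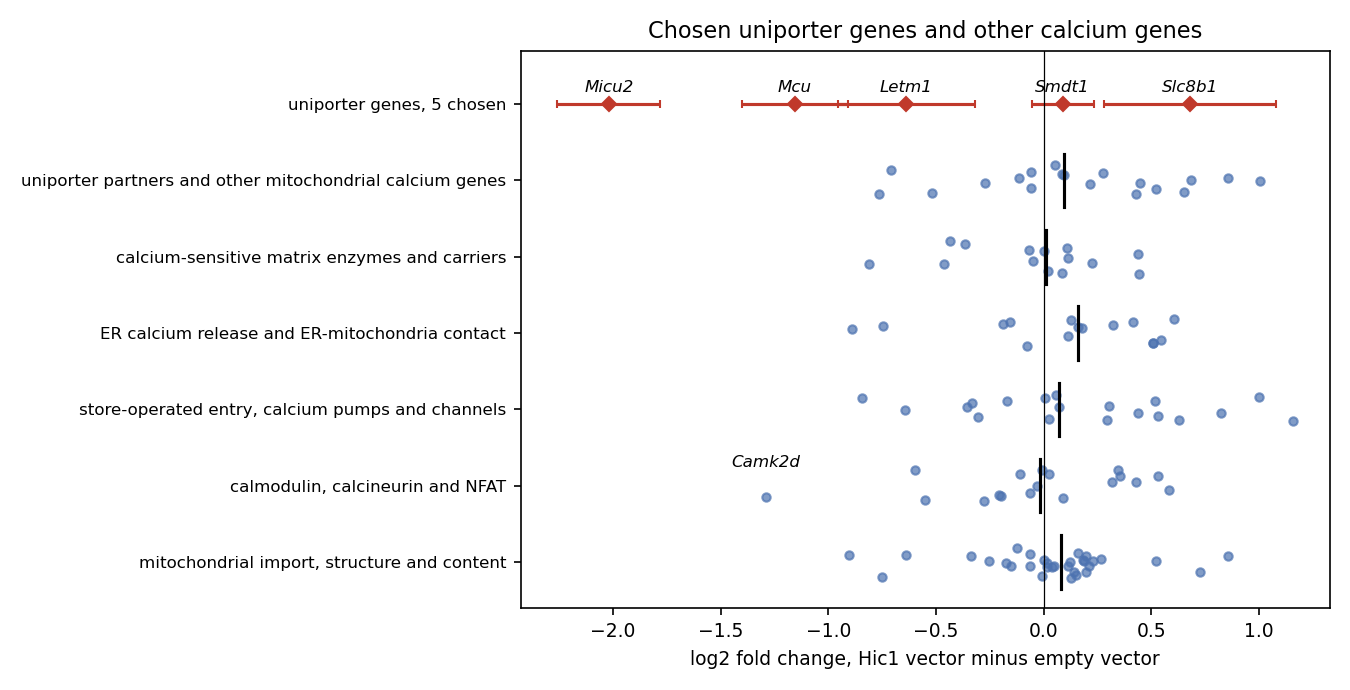
Log2 fold change, Hic1 vector minus empty vector, of the 5 chosen genes (red diamonds, bars are SE) and of every tested gene of 6 lists (blue points, spread vertically for visibility, black ticks are list medians). Camk2d is labelled as the 1 list gene called by edgeR, the list medians lie between -0.02 and 0.16, and Micu2 lies below every list gene.

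Transcript GC content moved with the comparison over all genes. Among the 5 genes it rose with the log2 fold change, except that Letm1 and Smdt1 had the same value. Genes called higher had a median GC of 55.8% and genes called lower 46.1%, against 49% for all genes tested. From the lowest log2 fold change to the highest, GC content was 47% for Micu2, 49.2% for Mcu, 53.1% for Letm1, 53.1% for Smdt1 and 56.9% for Slc8b1. With the trend on GC content taken out of every library, the values were -1.94 for Micu2, -1.12 for Mcu, -0.76 for Letm1, -0.04 for Smdt1 and 0.48 for Slc8b1. With the trend left in, Micu2 had -2.02 and Mcu -1.15. The part of GC content in these differences was not tested.

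**Figure D4:**
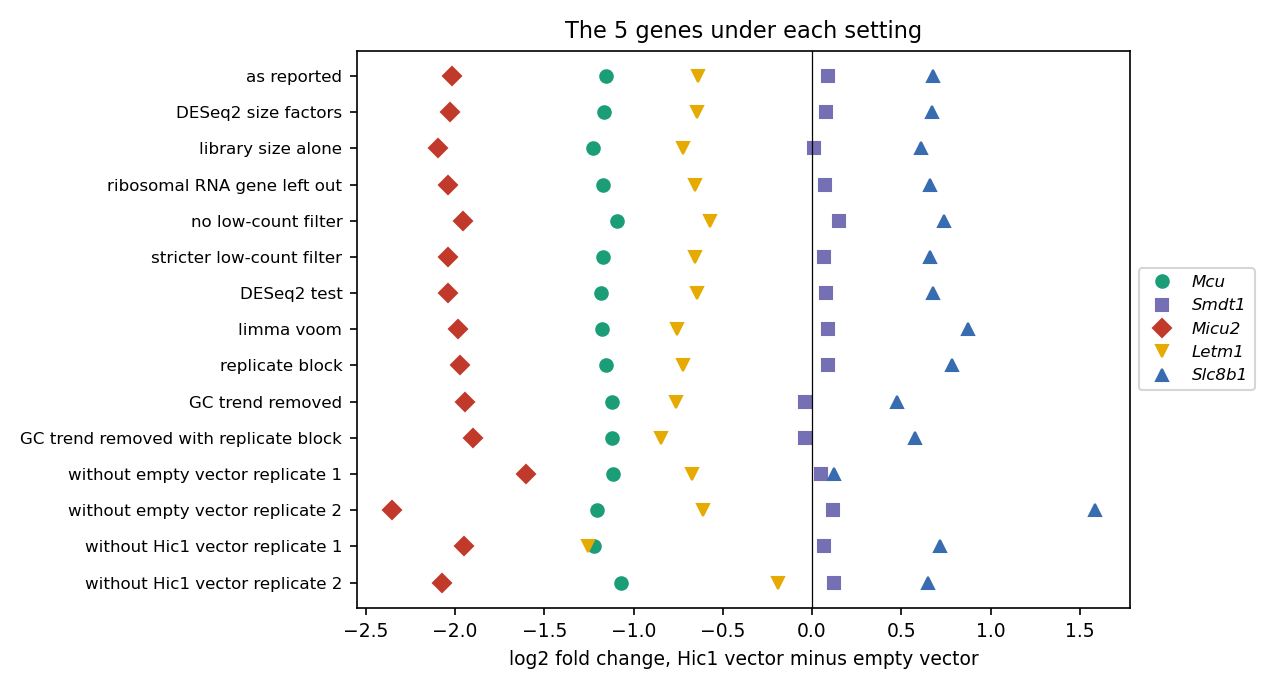
Log2 fold change of each of the 5 genes as reported and under 14 other settings, with a marker shape and colour per gene. Micu2 and Mcu stay below 0 in every setting shown, Smdt1 crosses 0, Letm1 moves toward 0 without Hic1 vector 2, and Slc8b1 does so without empty vector 1.

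The 5 genes whose pattern over the 4 libraries was nearest to that of Micu2, among 6301 protein-coding genes with a mean of at least 20 CPM, were Pithd1, Panx1, Lrrfip2, Nop9 and Cand1. The measure was the root mean square difference of log2 CPM after each gene's mean was removed, and it ran from 0.126 for Pithd1 to 0.224 for Cand1. Pithd1 was at 45.9 and 29.5 CPM with the empty vector and at 10.1 and 11.4 CPM with the Hic1 vector, and like Micu2 it was highest in empty vector 1. Panx1, a channel that releases ATP, was at 120 and 54.7 CPM against 19.7 and 17.1 CPM. Cand1, an exchange factor of cullin ubiquitin ligases, was at 94.4 and 51.7 CPM against 23.2 and 24.5 CPM. Likeness over 4 libraries is a description of these libraries.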

How the data were processed

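Messenger RNA of 4 libraries was used. Smart-seq2 used 5 µl of lysate and 12 PCR cycles, per the labels' protocols, after a sort of 5000 cells and a resort of 1000. The authors deposited raw counts per gene as whole numbers. The submitters' processing notes list mm10, featureCounts 1.5.3, STAR 2.5.2b, DESeq2 1.3.2 and Trimmomatic 0.38 without roles. Annotation release, strand setting and layout of reads: not given in the sources used here. A second deposited table, the same counts divided by a factor per library plus 1, was not used.

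Genes were kept by filterByExpr (minimum count 10, minimum total 15), scaled by TMM and fitted by group with the robust quasi-likelihood test of edgeR 4.0.16 in R 4.3.3, with a prior count of 2. SE is the absolute log2 fold change divided by the square root of F. Differences within a replicate number add 0.5 reads before the log. P-values were Benjamini-Hochberg adjusted over all 11676 genes, with calls at 0.05. Alternatives used DESeq2 1.42.0 and limma 3.58.1, and a loess GC correction (span 0.3). Lengths, positions and GC come from GENCODE M21, where 99.5% of identifiers were found. The 5 genes and 6 lists were chosen with earlier results of these data known. Named list genes are those called and otherwise those of lowest p, up to 4 per list, and some are not reported here. P-values rest on the spread between these libraries, n = 2 per group, moderated with information from other genes. That spread includes the sex difference between libraries, except in fits with the replicate number as a term.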

Additional observations from a re-analysis of the deposited data

How the results depend on the processing

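Micu2 and Mcu stayed below 0 and Slc8b1 above 0 in all 14 alternatives, and Letm1 stayed below 0. The log2 value of Smdt1 was 0.0133 with library size alone, -0.0374 with the GC trend removed and -0.0377 with the GC trend removed and a replicate block. With single libraries left out it was 0.05 to 0.12. Over all genes 213 were called (39.4% higher). Counts were 321 with library size alone (21.8% higher), 819 without a low-count filter (56.3%), 418 by DESeq2 (36.4%), 102 with the GC trend removed (29.4%) and 8 to 318 with single libraries left out. The 8 came without empty vector 1. Of the 117 tested list genes 1 was called (0.855%, against 1.82% of all genes). By DESeq2 4 of 117 were called (3.42%, against 3.58% of all genes). Without a low-count filter 10 of 117 were called, against 819 of 31962 over all genes. With library size alone 3 of 117 were called, against 321 of 11676, and with the GC trend removed 0, against 102 of 11676. The causes were not tested.

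The labels give no pairing, and deviations of same-numbered libraries correlated at 0.239 across genes. A fit with the replicate number as a block called 794 of 11676 genes and 11 of 117 list genes, and with the GC trend also removed 579 and 10. It gave -1.97 for Micu2, -1.15 for Mcu, -0.72 for Letm1, 0.09 for Smdt1 and 0.78 for Slc8b1. For number 2 against 1, 27 genes were called, against 7 with library size alone, 42 without the ribosomal RNA gene, 222 without a filter, 6 with a stricter filter and 48 by limma voom. Slc8b1 with the empty vector (38 and 105 counts) and Mcu (117 to 149) were the values most limited by depth.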
